A study of Mus musculus with 8 samples.

Results

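The genes that carry retinoic acid signaling were examined for chromatin loops, topologically associating domains (TADs) and CTCF binding in newborn mouse lens and in embryonic stem (ES) cells. They are the receptors Rara, Rarb, Rarg, Rxra, Rxrb and Rxrg, the retinaldehyde dehydrogenases Aldh1a1, Aldh1a2 and Aldh1a3, and the hydroxylase Cyp26a1. These 10 genes, of 20191 protein-coding genes of at least 1 kb, were taken by name. Each gene body was widened by 5 kb on either side, and a loop, TAD or CTCF peak was counted at a gene when it overlapped this interval by at least 1 bp.

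Hi-C was performed on lens epithelium and on lens fiber cells from CD-1 mice at postnatal day 0.5, each microdissected by hand under a microscope with 30 lenses pooled per replicate, and on wild-type v6.5 mouse ES cells, a single line grown without feeders in the presence of LIF, with 2000000 cells per replicate. Per the study's methods the ES cell line is male and of mixed strain background. Strain and cell type therefore cannot be told apart between ES cells and lens. All material was fixed in 2.0% formaldehyde, and the 2 replicates of a cell type were merged before loops and TADs were called. CTCF ChIP-seq was carried out on lens epithelium and lens fiber cells from 200 lenses of the same strain and age, with 5 µl of antibody. The labels give 1 ChIP-seq sample per lens cell type, while the study's methods speak of replicates, so a peak list may stand for more than one preparation. The lists hold no expression values, so the labelled cell types could not be checked against their marker genes.

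In the order of ES cells, epithelium and fiber cells, the lists comprised 8459, 8005 and 7682 loops and 3604, 1796 and 2641 TADs, and CTCF peaks numbered 16433 for the epithelium and 23868 for the fiber cells. With 1 list per cell type there is no replicate error, no test between cell types was possible, and the intervals given below cover counting error only. A loop missing from a list did not pass the caller's thresholds at that library's depth, which the lists do not state, so its absence is not a measurement of no contact. Loops were called at anchors of 5, 10 or 25 kb, and contact ratios are on one scale only between loops of the same anchor width. Contact counts also follow the depth of each list, so they are not on one scale between cell types even at equal anchors. The study reports differing contact totals per cell type, with a lower share between chromosomes in ES cells than in either lens cell type.

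Retinoic acid is made from retinol in successive oxidations, the last of which is carried out by the Aldh1a enzymes, and it is broken down by the Cyp26 enzymes. It binds the retinoic acid receptors (RARs), which sit on DNA as heterodimers with the retinoid X receptors (RXRs) at paired half-sites in direct repeat, and ligand exchanges bound corepressors for coactivators. The pathway is known for its part in the formation of the optic cup and lens, and Rarb and Cyp26a1 are classical direct targets of the receptors that they serve or limit.

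The promoter sequences of Rarb and Cyp26a1 are shown because each holds such a repeat, and that of Aldh1a2 because loop anchors of all 3 cell types lay over its start site. They run 5′ to 3′ on the strand of the gene, from 250 bases before the RefSeq start site to 50 bases that include and follow it (GRCm38.p6). The windows are chr14:16575427-16575726 on the minus strand for Rarb, chr19:37697558-37697857 on the plus strand for Cyp26a1 and chr9:71215539-71215838 on the plus strand for Aldh1a2. Capitals mark a direct repeat of the 6-base half-site (A or G, then G, then G or T, then TCA), in any pair, with a spacer of 5 bases (DR5), searched on both strands.
Rarb: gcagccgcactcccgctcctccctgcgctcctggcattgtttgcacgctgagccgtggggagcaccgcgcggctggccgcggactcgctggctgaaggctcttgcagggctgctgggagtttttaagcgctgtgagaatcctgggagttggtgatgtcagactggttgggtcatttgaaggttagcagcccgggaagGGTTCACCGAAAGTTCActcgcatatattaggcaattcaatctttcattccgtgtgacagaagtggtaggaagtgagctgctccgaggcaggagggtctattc
Cyp26a1: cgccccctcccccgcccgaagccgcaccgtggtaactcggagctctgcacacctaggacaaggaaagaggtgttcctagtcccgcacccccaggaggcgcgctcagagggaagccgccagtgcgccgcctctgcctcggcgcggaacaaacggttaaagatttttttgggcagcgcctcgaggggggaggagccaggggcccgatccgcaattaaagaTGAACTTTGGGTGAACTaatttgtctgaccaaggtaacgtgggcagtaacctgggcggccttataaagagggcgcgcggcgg
Aldh1a2: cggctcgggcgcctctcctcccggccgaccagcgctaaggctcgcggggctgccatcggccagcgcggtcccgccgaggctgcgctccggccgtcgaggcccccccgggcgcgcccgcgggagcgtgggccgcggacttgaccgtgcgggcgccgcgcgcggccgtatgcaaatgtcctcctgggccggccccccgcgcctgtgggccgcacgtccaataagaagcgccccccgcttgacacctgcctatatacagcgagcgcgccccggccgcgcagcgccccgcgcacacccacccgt

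The repeat in Rarb, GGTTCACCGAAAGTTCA, lay on the strand of the gene at positions -53 to -37 from the start site. In Cyp26a1 the match, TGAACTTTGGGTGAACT as read along the gene, lay on the opposite strand at -32 to -16. A DR5 of these letters was present in 15 of 19820 promoter windows (0.0757%), belonging to 14 of 16050 genes, and 2 of the 9 members with listed windows were among them. Rarb and Cyp26a1 were already known as direct targets of the receptors, so their matches are not an independent result. The same half-sites with a spacer of 2 bases occurred in 18 windows (0.0908%), none of them of a member. Such a match is a description of the letters in the window and does not measure binding.

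Loops were called at 8 of the 10 genes in ES cells, 9 in the epithelium and 9 in fiber cells, where 39.3%, 38.2% and 36.5% of all genes had a loop by the same rule. Gene length differs within these figures. Among genes of 20 to 100 kb 44.5%, 42.7% and 40.3% had a loop, and all 6 members of that length had one in each list. Below 20 kb the shares were 28.8%, 25.9% and 24.4%, with 1 of 2 members in each list, and from 100 to 1000 kb they were 67.1%, 75.9% and 74.6%, with 1 of 2 members in ES cells and both in each lens list. In number, the loops at the members came to 16, 17 and 16 in the same order. Their median size was 232.5 kb, 200 kb and 215 kb, against 220 kb, 250 kb and 270 kb over the whole lists, and 3 of the ES cell loops and none of the lens loops were longer than 1 Mb. Loops longer than 1 Mb made up 7.81%, 8.36% and 9.37% of the lists. Each of the 3 long ES cell loops at members was called on a single pixel of the contact map, as were 40.7% of all ES cell loops.

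**Figure D1:**
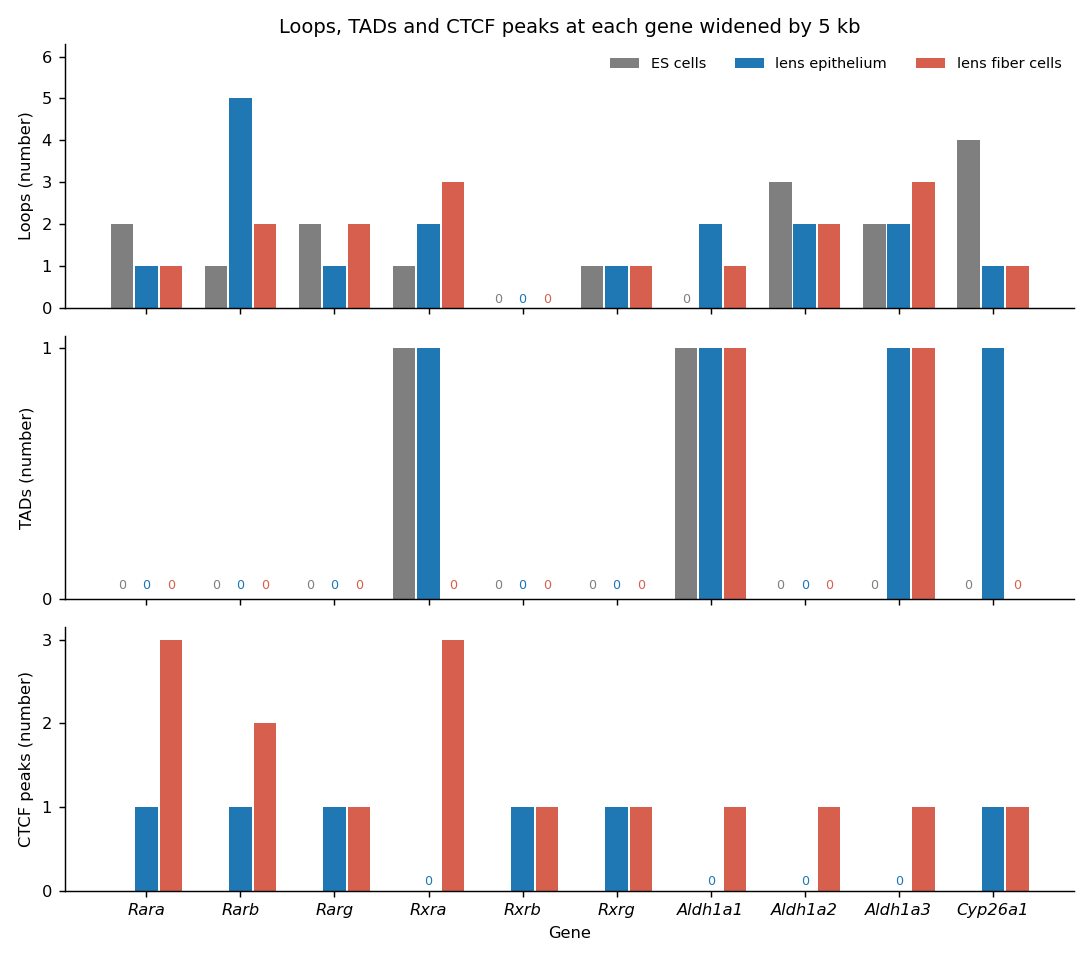
Numbers of loops (top), TADs (middle) and CTCF peaks (bottom) at each gene widened by 5 kb, as bars for each cell type, with 0 printed where none was listed; CTCF was measured in the lens only. Rarb had 5 loops in lens epithelium against 1 in ES cells and 2 in lens fiber cells, Cyp26a1 had 4 in ES cells against 1 in each lens list, and each of the 10 genes had a CTCF peak in lens fiber cells.

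A loop was treated as shared when both anchor midpoints lay within 10 kb. Of the 17 loops in lens epithelium, 10 were shared with lens fiber cells (55.5% of the whole epithelium list) and 6 with ES cells (37.9%). Of the 16 loops in lens fiber cells, 10 were shared with lens epithelium (57.8%) and 7 with ES cells (38.1%), and of the 16 in ES cells, 6 were found in the epithelium (35.9%) and 8 in fiber cells (34.6%). Loops found in no other list numbered 7 in ES cells (57.0%), 6 in the epithelium (35.8%) and 4 in fiber cells (34.4%). In each list 5 loops were common to all 3, and they belonged to Rara, Rarb, Rxra, Rxrg and Aldh1a3.

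**Figure D2:**
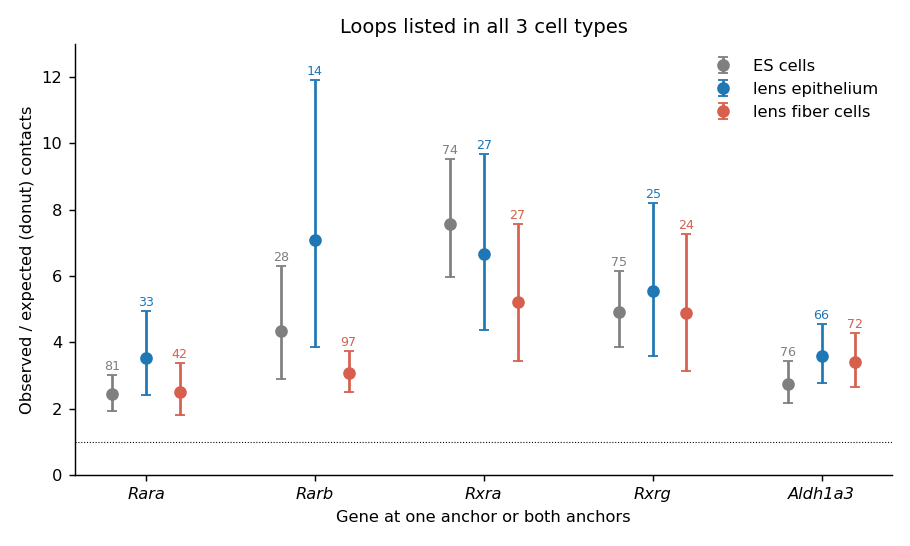
Observed over expected contacts (local donut model) of the loop at each gene that was listed in all 3 cell types, with exact Poisson 95% intervals on the observed count, which is printed above each bar. The intervals of the 3 cell types overlapped at Rara, Rxra, Rxrg and Aldh1a3; the Rarb loop was called at 5, 10 and 25 kb anchors, so its ratios are not on one scale.

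Rara encodes the receptor found in most tissues. The gene spans 47.1 kb at chr11:98927800-98974942 on the plus strand, and a loop with both anchors inside the widened gene was called in all 3 cell types, of 45 kb in ES cells, 40 kb in the epithelium and 35 kb in fiber cells. In ES cells 81 contacts were observed, 2.43 times the expected number (95% interval 1.93 to 3.02). In lens epithelium there were 33 contacts, 3.51 times the expectation (2.42 to 4.93), and in lens fiber cells 42, 2.49 times (1.80 to 3.37). The intervals of the ratios overlapped, but the anchors did not lie at the same place. In ES cells and lens epithelium the 5′ anchor covered chr11:98925001-98930000, and in lens fiber cells it covered chr11:98935001-98940000, the only one of the 3 to hold listed start sites, at 98937696, 98937718 and 98939711. The annotated 5′ end of the gene, 98927800, lay in the ES cell and epithelium anchor, although no start site is listed there. ES cells had a second loop of 145 kb, from the Gjd3 side of the 3′ end (42 contacts, 4.02 times expected, 2.90 to 5.44), that was not listed in the lens.

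**Figure D3:**
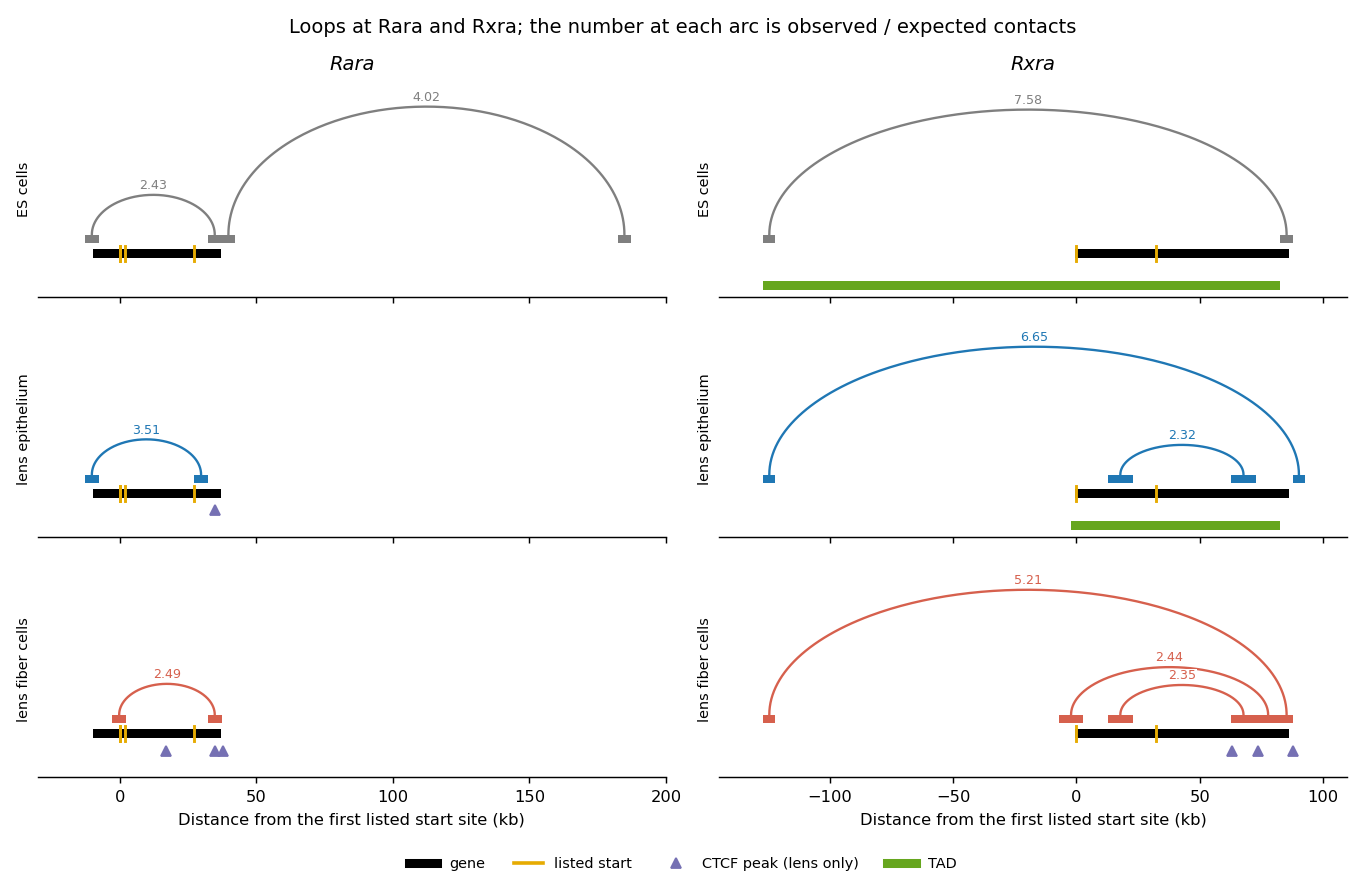
Loops (arcs between anchor bars), TADs and lens CTCF peaks at Rara (left) and Rxra (right) in the 3 cell types, against distance in kb from the first listed start site; the number on an arc is its observed over expected contacts, and arc height follows loop size. The fiber cell loop in Rara begins over listed start sites, those of ES cells and epithelium over the annotated 5′ end of the gene, and the large Rxra loop of about 210 kb is present in all 3 rows. Only peaks within 5 kb of the genes are drawn.

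Rarb, the receptor gene induced by its own ligand, is the longest of the members at 651 kb (chr14:16430839-17082331, minus strand). One long loop joined its 3′ end to a point 317669 bases beyond the upstream end of the gene in each cell type, of 970 kb in ES cells, 965 kb in the epithelium and 975 kb in fiber cells. In ES cells and fiber cells its near anchor also overlapped Top2b, so that the genes cannot be told apart there. The contacts were 28, 14 and 97, or 4.35 (2.89 to 6.29), 7.08 (3.87 to 11.9) and 3.07 (2.49 to 3.75) times the expected number. Since the caller reported this loop at anchors of 10, 5 and 25 kb in turn, the counts and ratios are not on one scale, and the epithelium loop had the largest of its 4 false discovery rates at 0.096.

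Within the Rarb gene, lens epithelium had 4 loops with both anchors in the gene, all at 25 kb anchors, and none of them was shared with another list. Each was called on a single pixel of the contact map, as was the loop of fiber cells inside the gene, and with anchors of 5 or 10 kb alone no list had a loop inside Rarb and the epithelium had 1 loop at it in place of 5. A pair of these started at chr14:16575001-16600000, the anchor that holds the listed start site at 16575476 and the printed promoter with its DR5, and reached 200 kb and 300 kb upstream into the long 5′ part of the gene. They held 93 contacts, 2.09 times expected (1.69 to 2.56), and 106 contacts, 2.17 times expected (1.78 to 2.63). The remaining pair, each of 100 kb, lay wholly upstream of that start with 46 and 69 contacts, 3.05 (2.23 to 4.07) and 3.06 (2.38 to 3.87) times expected. Lens fiber cells had a single loop with both anchors in the gene, of 350 kb at 25 kb anchors between the 3′ end and the anchor at chr14:16775001-16800000 (81 contacts, 2.09 times expected, 1.66 to 2.60), which was also the far anchor of the 200 kb epithelium loop. Its first anchor overlapped Top2b as well. In ES cells no loop lay within Rarb.

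**Figure D4:**
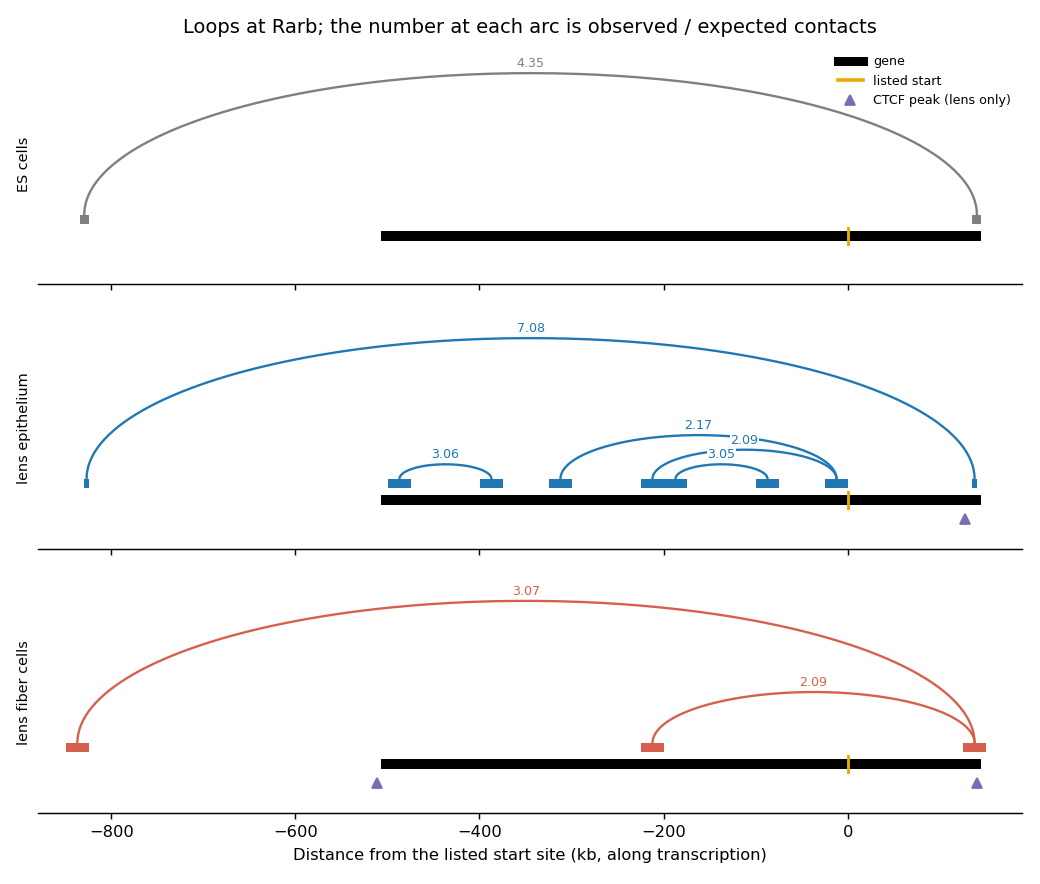
Loops at Rarb in the 3 cell types, against distance in kb from the listed start site along the direction of transcription; arcs join anchor bars, the number on each is observed over expected contacts, and triangles are lens CTCF peaks within 5 kb of the gene. The long loop of 965 to 975 kb recurs in each row, and the 4 short loops inside the gene appear in the epithelium row.

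Counted over all members, loops with both anchors in the gene numbered 1 in ES cells, 6 in the epithelium and 4 in fiber cells. They belonged to 1, 3 and 3 members, while 3.09%, 3.65% and 3.29% of all genes had such a loop. All came from Rara, Rarb and Rxra, which are 47.1, 651 and 86.9 kb long. Only a gene long enough to hold the whole loop can be counted here, and 10215 of the 20191 genes are shorter than 20 kb. These shares were not split by gene length, so the part of length in the difference was not tested.

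At Rarg, the receptor of skin and cartilage (chr15:102234938-102257522, minus strand, 22.6 kb), the ES cell and lens lists had no loop in common. ES cells had a 35 kb loop (67 contacts, 2.38 times expected, 1.84 to 3.02) and a 3530 kb loop whose anchor held the start site at 102257522 and whose far end lay over Ccdc65 and Fkbp11. The long loop rested on 16 contacts, 11.1 times the expectation (6.33 to 18.0). Both lens lists had a 110 kb loop with 41 contacts in epithelium and 56 in fiber cells, 2.57 (1.85 to 3.49) and 2.58 (1.95 to 3.35) times expected, and fiber cells had a 50 kb loop in addition (71 contacts, 2.03 times, 1.59 to 2.56). The near anchor of these lens loops lay in Itgb7, 4937 bases from Rarg, so that they counted at Rarg only through the 5 kb widening.

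Rxra encodes the RXR that is the main RAR partner in many tissues (chr2:27676445-27763319, plus strand, 86.9 kb). Its large loop spanned 210 kb in ES cells, 215 kb in the epithelium and 210 kb in fiber cells, from upstream DNA without a listed gene to the 3′ end of Rxra. The epithelium anchor there lay 1681 bases past the gene. The contacts numbered 74, 27 and 27, or 7.58 (5.96 to 9.52), 6.65 (4.38 to 9.68) and 5.21 (3.43 to 7.58) times expected. These intervals overlapped. A loop of 50 kb inside the gene was called in both lens lists at the same anchors, with 70 contacts in epithelium and 86 in fiber cells, 2.32 (1.81 to 2.94) and 2.35 (1.88 to 2.91) times expected, and it was not listed in ES cells. In lens fiber cells alone a loop of 80 kb joined the anchor that holds the start site at 27677201 to the 3′ part of the gene (78 contacts, 2.44 times, 1.93 to 3.05). It was called on a single pixel, with its largest false discovery rate at 0.017.

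Rxrb, a broadly expressed RXR, was the only member without a loop in any list. The gene is 6.59 kb long (chr17:34031812-34038403, plus strand), and the nearest anchor lay 31.6 kb away in ES cells, 31.8 kb in the epithelium and 61.8 kb in fiber cells. Rxrg, the RXR of muscle and nervous tissue (chr1:167598362-167639623, plus strand, 41.3 kb), had the same single loop in each list, of 230, 225 and 220 kb between its 3′ end and DNA upstream of the gene. It held 75, 25 and 24 contacts, 4.91 (3.86 to 6.15), 5.55 (3.59 to 8.20) and 4.88 (3.13 to 7.27) times expected. The ES cell anchor began 377 bases past the gene, and no listed start site of Rxrg lay in an anchor.

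The dehydrogenases, which make the ligand, differed from each other. Aldh1a1, known from the dorsal retina and the lens, spans 151 kb at chr19:20492583-20643463 on the plus strand. ES cells had no loop at it, lens epithelium had loops of 250 kb (85 contacts, 2.30 times expected, 1.84 to 2.85) and 180 kb (34 contacts, 3.05 times, 2.11 to 4.26), and lens fiber cells had one of 150 kb (171 contacts, 2.15 times, 1.84 to 2.50). None of the 3 was shared by the 10 kb rule, but the 180 kb epithelium loop and the fiber cell loop would count as shared at a tolerance of 25 kb. The 180 kb loop was called at 10 kb anchors and the other loops at 25 kb anchors, so its values are on another scale. The 250 kb loop of epithelium reached Anxa1, and both it and the fiber cell loop ended at the same anchor, chr19:20600001-20625000, which holds the internal start site at 20601968. A loop of 400 kb that enclosed the gene without touching it was called in all 3 lists, with 42 and 28 contacts at 10 kb anchors in ES cells and epithelium and 75 at 25 kb anchors in fiber cells. Fiber cells had another enclosing loop of 250 kb (123 contacts). Such loops of up to 1 Mb are not particular to Aldh1a1. They were listed at Aldh1a3 in all 3 lists and at Rara, Rarg, Rxra, Rxrg, Aldh1a2 and Cyp26a1 in fewer.

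Aldh1a2, the main synthetic enzyme of the early embryo (chr9:71215789-71296243, plus strand, 80.5 kb), was the only member whose start site lay in a loop anchor in each of the 3 lists. From this site both lens lists had the same pair of loops into the DNA past the gene's 3′ end. One of 230 kb held 54 contacts in epithelium and 84 in fiber cells, 3.87 (2.91 to 5.05) and 4.42 (3.53 to 5.48) times expected, and one of 400 kb held 81 and 109 contacts, 2.77 (2.20 to 3.45) and 2.78 (2.28 to 3.35) times expected. The lens ratios for each loop lay within each other's intervals. By the 10 kb rule the ES cell loops from the start site were not shared with those lens loops, and they spanned 150 kb (65 contacts, 2.37 times, 1.83 to 3.03), 250 kb (188 contacts, 2.16 times, 1.86 to 2.49) and, in the opposite direction, 1450 kb to Foxb1 (28 contacts, 3.72 times, 2.47 to 5.38). The far anchor of the 250 kb loop lay beside that of the 230 kb lens loop, with midpoints 17.5 kb apart, so the pair would count as shared at a tolerance of 25 kb. The ES cell loop of 250 kb was within 10 kb of a 260 kb loop of lens fiber cells, whose anchor ended more than 5 kb before the gene and so was not counted at Aldh1a2.

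**Figure D5:**
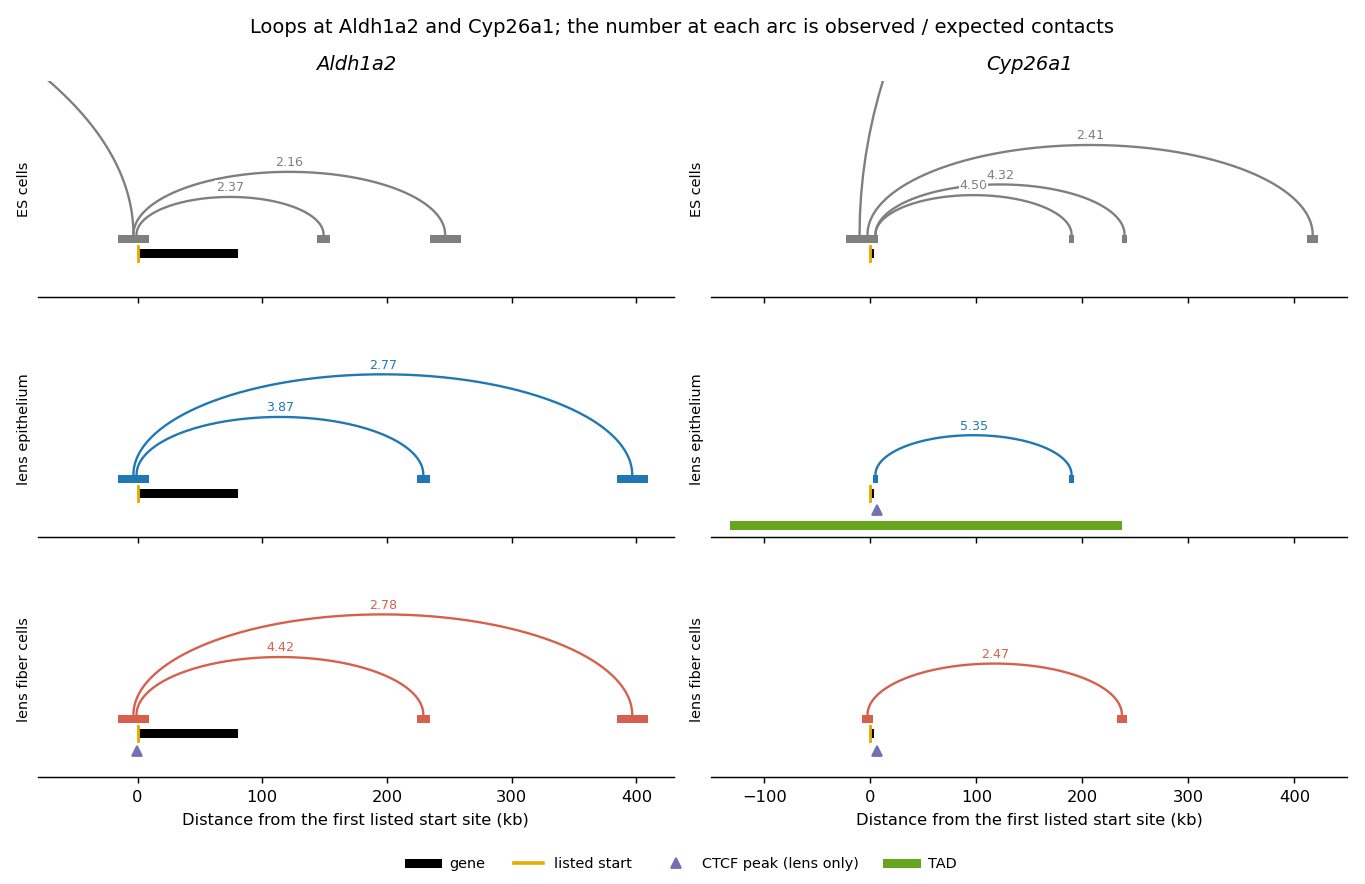
Loops, TADs and lens CTCF peaks at Aldh1a2 (left) and Cyp26a1 (right) in the 3 cell types, against distance in kb from the start site, with observed over expected contacts on each arc; arcs that leave the frame are the 1450 kb loop of Aldh1a2 and the 5925 kb loop of Cyp26a1 in ES cells. The lens rows of Aldh1a2 hold the same 230 and 400 kb loops, and the 4 loops of Cyp26a1 are in the ES cell row.

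Aldh1a3, the enzyme of the ventral retina (chr7:66390892-66427477, 36.6 kb), had a loop to Asb7 in all lists. It spanned 260 kb in ES cells, 240 kb in the epithelium and 260 kb in fiber cells, with 76, 66 and 72 contacts, 2.74 (2.16 to 3.43), 3.57 (2.76 to 4.54) and 3.40 (2.66 to 4.28) times expected. A second loop to Asb7 was shared by ES cells (230 kb, 32 contacts, 4.11 times, 2.81 to 5.80) and lens fiber cells (220 kb, 79 contacts, 2.85 times, 2.26 to 3.56), at anchors of 5 kb and 10 kb, so their values are not on one scale. Its near anchor lay 2523 bases outside Aldh1a3 in both lists, so that it counted there only through the 5 kb widening. Both lens lists had a loop of 60 kb within Lrrk1, whose anchor stopped 891 bases short of Aldh1a3. It had 50 contacts in epithelium and 62 in fiber cells, 2.04 (1.52 to 2.69) and 2.10 (1.61 to 2.69) times expected, and its largest false discovery rates were 0.089 and 0.052.

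Cyp26a1, which removes the ligand, is the smallest member at 3.80 kb (chr19:37697738-37701536, plus strand) and had the most loops of any member in ES cells. The 4 ES cell loops spanned 185 kb (63 contacts, 4.50 times expected, 3.46 to 5.76), 235 kb to Myof (44 contacts, 4.32 times, 3.14 to 5.80), 420 kb (34 contacts, 2.41 times, 1.67 to 3.37) and 5925 kb to Nkx2-3 (17 contacts, 7.98 times, 4.65 to 12.8). The far anchor of the 420 kb loop lay over Rbp4, the plasma carrier of retinol, and Ffar4. The near anchors of the 420 kb and 5925 kb loops held the start site at 37697808 with the printed promoter and also overlapped the neighbour Cyp26c1, so that the genes cannot be told apart there. Each lens list had 1 of the ES cell loops. Lens epithelium had the 185 kb loop at the same anchors (32 contacts, 5.35 times, 3.66 to 7.55), and lens fiber cells had a 240 kb loop to Myof (56 contacts, 2.47 times, 1.87 to 3.21), whose near anchor held the start site and, like that of the 420 kb loop, also overlapped Cyp26c1. Its 10 kb anchors put it on another scale than the 235 kb loop of ES cells, called at 5 kb.

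Over the 9 members with listed start sites, an anchor held one at 3 members in ES cells (Rarg, Aldh1a2 and Cyp26a1), 3 in lens epithelium (Rarb, Aldh1a1 and Aldh1a2) and 5 in lens fiber cells (Rara, Rxra, Aldh1a1, Aldh1a2 and Cyp26a1). The corresponding shares of all 16050 genes with listed starts were 13.1%, 15.0% and 13.8%. At Rara the annotated 5′ end of the gene lay in an anchor in ES cells and epithelium, but it is not a listed start and was not counted. An anchor is 5 to 25 kb wide, so a start site within it is not shown to be the point of contact.

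TADs touched 2 members in ES cells, 4 in the epithelium and 2 in fiber cells, against 45.7%, 24.1% and 33.3% of all genes. Aldh1a1 lay whole within a TAD in every list, of 390 kb in ES cells, 415 kb in the epithelium and 390 kb in fiber cells. The ES and fiber cell domains had the same ends, chr19:20355001-20745000. Rxra was touched by a 210 kb TAD in ES cells, which ran from the upstream anchor of its large loop to 27760000, and by an 85 kb TAD in lens epithelium with the same 3′ end that began beside the gene. No TAD was listed at Rxra in lens fiber cells. Aldh1a3 was cut by the end of a TAD of 105 kb in epithelium and of 95 kb in fiber cells, which took in 19.1 kb and 9.11 kb of the gene, and Cyp26a1 lay in a 370 kb TAD in epithelium alone. At Rara, Rarb, Rarg, Rxrb, Rxrg and Aldh1a2 no TAD was listed in any cell type.

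CTCF, the DNA-binding protein that marks many loop anchors and domain borders, had 6 peaks at 6 members in the epithelium and 15 peaks at all 10 members in fiber cells, where 33.1% and 48.5% of all genes had a peak. Among genes of 20 to 100 kb these shares were 37.4% and 54.5%, with 3 and 6 of the 6 members of that length. Below 20 kb they were 21.5% and 36.3%, with 2 of 2 members in each list. From 100 to 1000 kb they were 67.9% and 81.0%, with 1 of 2 members in the epithelium and 2 of 2 in fiber cells. The fiber cell list is the longer of the lists, and the depth of the libraries is not in the files, so that the part of depth in the difference was not tested. Of the 6 epithelium peaks, 5 overlapped a fiber cell peak (72.8% over the whole list), and of the 15 fiber cell peaks, 5 overlapped one of epithelium (50.1%). The median fold enrichment was 5.92 in epithelium and 6.10 in fiber cells, beside 5.78 and 6.44 over the whole lists.

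The shared peaks lay at Rara, Rarg, Rxrb, Rxrg and Cyp26a1. The strongest was that of Rxrg, in the 3′ part of the gene at chr1:167637002-167637389 in epithelium and chr1:167637037-167637414 in fiber cells, with fold enrichments of 9.57 and 10.2. Next was the Cyp26a1 peak just past the 3′ end, at chr19:37703933-37704253 and chr19:37703884-37704296, with 8.91 and 10.1, and it lay in the near anchor of the 185 kb loop of ES cells and epithelium. The peak in Rarg (chr15:102239234-102239467 in epithelium) had 5.38 and 7.83, that in Rxrb (chr17:34034181-34034447) had 6.46 and 4.99, and that at the 3′ end of Rara (chr11:98972255-98972535) had 4.39 and 4.71. Rara had another pair of peaks in fiber cells alone, at chr11:98954365-98954576 (6.10-fold) and just past its 3′ end at chr11:98975422-98975654 (5.73-fold). Rxrb was thus without a loop but had a peak in both cell types.

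At 4 members a peak was listed in lens fiber cells and none in epithelium. Rxra had 3 such peaks, at chr2:27740363-27740670 (7.77-fold), chr2:27750993-27751180 (4.46-fold) and chr2:27764948-27765284 (6.48-fold). The first lay in the 3′ anchor of the 50 kb loop called in both lens cell types, the second in the anchor of the 80 kb loop of fiber cells, and the third at the 3′ anchor of the large loop. Aldh1a3 had a peak at chr7:66389259-66389559 (8.0-fold), within the anchor of the 60 kb Lrrk1 loop. Aldh1a2 had one at chr9:71215252-71215477 (5.08-fold), with its summit at position -407 from the start site and its end before the printed window begins, and Aldh1a1 had one past its 3′ end at chr19:20644431-20644618 (4.25-fold, -log10 q of 3.04).

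At Rarb the lists held different peaks. The epithelium peak lay at chr14:16447603-16447839 (5.30-fold), and the fiber cell peaks at chr14:16434439-16434748 (6.50-fold) and beyond the upstream end at chr14:17086371-17086585 (6.00-fold). The fiber cell peak near the 3′ end was 13.2 kb from that of epithelium. Both lay in the near anchor of the long loop as called in fiber cells, at 25 kb. Neither lay in its near anchor as called in epithelium, at 5 kb. No CTCF peak of either lens list lay at the anchors that hold the Rarb start site.

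Both anchors held a CTCF peak in 1 of 17 loops in the epithelium and in 4 of 16 in fiber cells, and neither anchor did in 13 and 2 loops. Over the whole lists both anchors held a peak in 15.7% and 39.1% of loops and neither in 39.5% and 16.6%. The loop of Rxrg had a peak at both anchors in both cell types, and in fiber cells so did the long loop of Rarb, the 210 kb loop of Rxra and the 400 kb loop of Aldh1a2. The 13 epithelium loops without a peak included the 5 loops of Rarb, which share a gene and are not independent. With the fiber cell peaks in place of those of epithelium, 4 of the 17 epithelium loops had a peak at both anchors.

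The other genes of the pathway, 25 that carry, oxidize or degrade retinoids or serve as coregulators of the receptors, had loops at 14 genes in ES cells, 13 in the epithelium and 14 in fiber cells, beside 39.3%, 38.2% and 36.5% of all genes. These counts include loops already given at Cyp26a1, which also met Rbp4 in ES cells and Cyp26c1 in ES cells and fiber cells. TADs touched 15, 8 and 13 of the 25 genes (45.7%, 24.1% and 33.3% of all genes), and CTCF peaks lay at 11 in epithelium and 19 in fiber cells (33.1% and 48.5%). Cyp26b1, the second Cyp26 enzyme, had the most loops of these genes in ES cells with 6, and 3 in each lens list, beside CTCF peaks of up to 8.32-fold in epithelium and 12.2-fold in fiber cells. Nrip1, a corepressor gene that responds to retinoic acid, had no loop in ES cells and 3 in each lens list. None of the lists had a loop at 10 of the 25 genes, Rbp3, Rdh5 and Crabp2 among them, and Rbp3 had 3 CTCF peaks in each lens list.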

How the data were processed

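Hi-C and CTCF ChIP-seq lists were used as deposited. Per the labels and the study's methods, Hi-C reads were processed with Juicer and BWA on mm10, whose coordinates are those of GRCm38. The deposited loop lists (HiCCUPS, juicer_tools 2.13.06 per the file headers) give the observed contact count, 4 expected contact numbers, and an FDR, that is a q-value, for each. The deposited TAD lists are Arrowhead domains. The deposited MACS2 peaks give fold enrichment (a ratio), -log10 p and q, a score (not used here) and the summit. The ratio of observed to expected contacts was taken on the donut model, with exact Poisson 95% intervals that cover counting error only. Gene bodies, RefSeq start sites and promoter windows came from GRCm38.p6, and no protein sequence or genome was used here. Overlaps were computed in Python 3.11.15 with pandas 2.3.3, numpy 2.4.6 and scipy 1.17.1, and the overlap, sharing and motif rules were tested on simulated data, where they recovered all planted cases. The members and lists were chosen with earlier results of these data known. Since there is 1 list per cell type, no test was made, and all members and all their loops, TADs and peaks are described. Splits by gene length were added after the data were seen. Examples among the other pathway genes were named after their values were seen.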

Additional observations from a re-analysis of the deposited data

How the results depend on the processing

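No paired analysis was possible because replicates were merged before the lists were made. Of 58 alternative counts, 44 stayed within 1.5 times the count reported. The others were as follows, and the cause was not tested except where the rule itself removes features. With anchors of 5 or 10 kb alone, the loops at members in lens epithelium fell from 17 to 11, since 6 of them had 25 kb anchors. When sharing needed overlapping anchors, epithelium loops found in fiber cells fell from 10 to 6, epithelium loops in ES cells from 6 to 2, and fiber cell loops in ES cells from 7 to 3. TADs that hold a whole member numbered 1 in ES cells, 2 in epithelium and 1 in fiber cells, and TADs of at least 200 kb numbered 2 in epithelium and 1 in fiber cells. In the stronger 50% of each CTCF list by fold, 3 epithelium and 7 fiber cell peaks remained at members, and without the 5 kb widening 8 fiber cell peaks did. With the peaks of the other lens cell type, loops with CTCF at both anchors numbered 4 in epithelium and 1 in fiber cells. Without widening, Rarg had no loop in either lens list and Rxrg none in ES cells. With as many fiber cell peaks as epithelium peaks, ranked by q, 10 of 15 were left, which is within 1.5 times.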
